A study of Mus musculus with 24 samples.

Results

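The 10 genes described here encode the precursors of the main hippocampal neuropeptides: Sst, Vip, Npy, Cck, Tac1, Pnoc, Crh, Penk, Pdyn and Cort. They were chosen by name, by a rule that uses no measured value, from the 33902 gene symbols of the single-nucleus RNA count tables, and all 10 were counted in every library. The ventral hippocampus was dissected from untreated male mice aged 10 to 16 weeks, of the inbred strains C57BL/6J (B6) and DBA/2J (D2), and its nuclei were isolated. There were 2 snRNA-seq and 2 snATAC-seq libraries per strain, each made from about 2 pooled animals. RNA nuclei had been sorted to enrich for NeuN-positive nuclei, so the shares of the cell types are set in part by that sort, and the ATAC nuclei had not. The libraries are named by the numbers the tables carry, 2 and 3 in each strain, because the labels tie each column to a strain only.

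Neuropeptides are cut from longer precursor proteins inside dense core vesicles, released on sustained firing, and read mostly by G-protein-coupled receptors. In the hippocampus several of them also serve as the standard names of interneuron classes. Cells born in the medial ganglionic eminence (MGE) include the somatostatin and parvalbumin interneurons, those born in the caudal ganglionic eminence (CGE) include the vasoactive intestinal peptide and cholecystokinin interneurons, and neurogliaform cells carry Lamp5. Several of these genes are textbook targets of cAMP and calcium signalling through the transcription factor CREB, which binds the palindrome TGACGTCA or its shorter core TGACG.

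Because of that background, the promoter stretches that hold the core are shown first. RefSeq promoter windows (GRCm38.p6, 250 bases before to 50 after the start) were matched for 7 of the 10 members, namely Sst, Vip, Npy, Cck, Tac1, Pdyn and Cort, as 8 windows. Searched on both strands, TGACG or its reverse complement CGTCA was present for 5 of the 7, and no match was found in the Npy and Pdyn windows. The core is common, since 20.8% of 32851 promoter windows of 300 bases hold it. The full palindrome TGACGTCA, which contains the core on both strands, is present in 1.79% of them and was found here in the Sst window. Each stretch runs 5′ to 3′ on the gene's strand, with the match in capitals.
Sst, chr16:23890874-23890903, minus strand, match from -48: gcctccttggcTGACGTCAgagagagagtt
Vip, chr10:5639126-5639155, plus strand, match from -79: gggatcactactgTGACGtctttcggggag
Cck, chr9:121495725-121495754, minus strand, match from -47: tcctgctggactgCGTCAgcactgggtaaa
Cort, chr4:149126765-149126794, minus strand, match from -18: gctccggcttgtgCGTCAccgcgtgagtgt
Tac1, first match, chr6:7554851-7554880, plus strand, from -197: ttccctaaaattgCGTCAtttcgaacacaa
Tac1, second match, chr6:7555005-7555034, plus strand, from -43: ggctctacaggctCGTCAcgcctgagataa
Positions are counted from the RefSeq start, which for Sst and Tac1 lies inside the GENCODE gene given below. The matches in Cck and Cort and the first match in Tac1 share the longer run TGCGTCA, which 2.12% of the windows hold. A match describes letters in the window and does not show that a factor binds there.

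Counts were available for 17 cell types and 30880 RNA nuclei, 16565 of B6 and 14315 of D2. Libraries held 43048686 to 56452272 counts, and a cell type in a library held 139713 to 11352265 counts from 45 to 1489 nuclei. The labelled types were checked against 14 marker lists. The lists of CA3 neurons, Cajal-Retzius cells, astrocytes, oligodendrocytes, their precursors, microglia, and vascular and leptomeningeal cells were highest in the type of that name for every gene in them. The MGE and CGE lists summed highest in the types so named, although only 3 of 7 and 3 of 6 of their genes peaked there. The Lamp5 list was highest in CR-CR, the Cajal-Retzius type, at 4840 CPM (counts per 1000000 counts of the scaled library), and next in Inh-Lamp5, at 2054 CPM. It shares the genes Reln and Ndnf with the list of Cajal-Retzius cells. The list of dentate granule neurons peaked in Exc-DG for 4 of 5 genes, that of GABAergic neurons summed highest in Inh-Lamp5, and those of CA1 and of excitatory neurons in Exc-CA1-Galntl6. Cell types had been assigned by the submitters from expression, so the levels across types are given as a description, without a test.

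Counts of a strong peptide precursor also appeared in nuclei that are not known to make it. The 5 non-neuronal types (astrocytes, oligodendrocytes, their precursors, microglia and vascular cells) held 16.8 and 16.4 Sst counts per 100 nuclei in B6 libraries 2 and 3 and 12.7 and 12.9 in D2 libraries 2 and 3, so this low level was itself apart between the strains. The single types averaged 13.5 to 15.2. Their Cck level was 22.5 to 30.5 counts per 100 nuclei, and their Vip level 1.86 to 2.06. In these 5 types the members' counts were composed alike, with Cck taking 50.6% to 53.2%, Sst 24.9% to 31.5%, Npy 6.15% to 7.07% and Vip 3.54% to 5.40%. In Inh-MGE, by contrast, Sst took 77.7%. This common level is used below as the background against which a neuropeptide count in another type is read.

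The interneuron classes Inh-MGE, Inh-CGE and Inh-Lamp5 together made up 10.0% of nuclei (SD 0.715, n = 4 libraries) and held most of the counts of 7 members. Of all Sst counts 80.5% (SD 8.98) lay in these 3 classes, of Vip 87.6% (SD 3.28), of Npy 74.8% (SD 9.78), of Tac1 74.8% (SD 2.76), of Pnoc 86.0% (SD 3.27), of Crh 82.6% (SD 12.1) and of Cort 68.7% (SD 10.4). Penk was divided between interneurons (51.3%, SD 9.19) and other types. Cck, with 21.2% (SD 7.23), and Pdyn, with 6.0% (SD 4.99), lay mostly in excitatory types. By mean CPM, Inh-MGE was the highest type for Sst, Npy, Tac1 and Cort, Inh-CGE for Vip, Cck, Crh and Penk, Inh-Lamp5 for Pnoc and Exc-DG, the dentate granule neurons, for Pdyn. The first place did not exceed its neighbour beyond the spread for Npy (Inh-MGE and Inh-Lamp5), Cck (Inh-CGE and Exc-Gpc6), Crh (Inh-CGE and Inh-MGE) and Pdyn (Exc-DG and the small NN-VLMC).

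**Figure D1:**
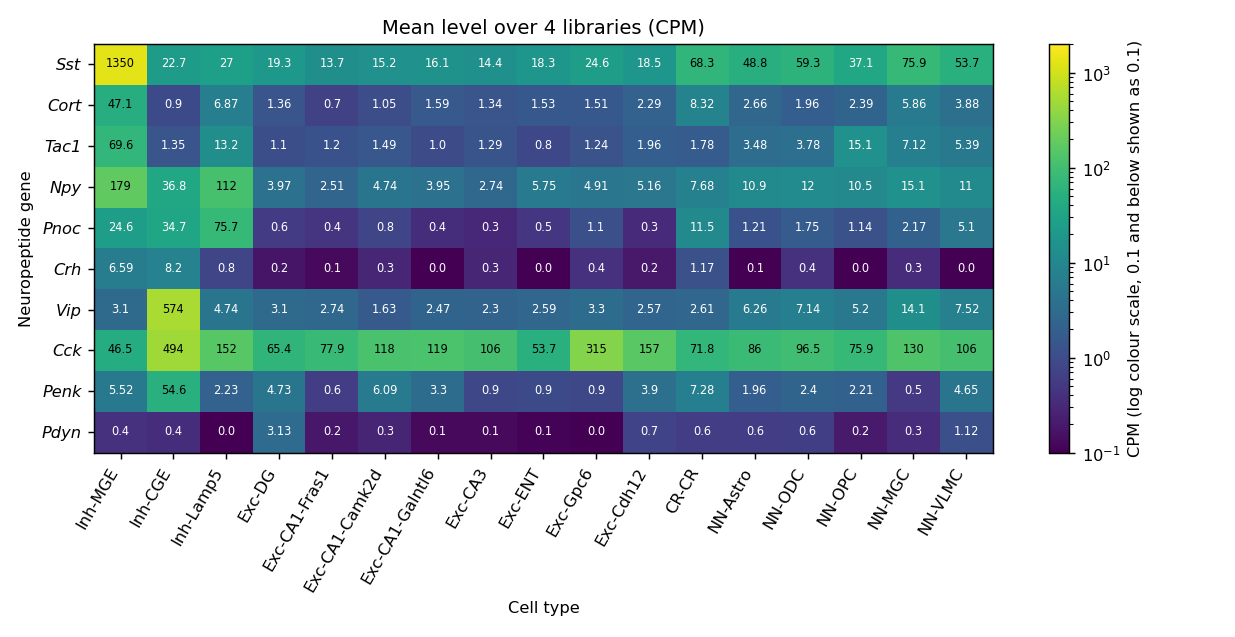
Mean level (CPM, over 4 libraries, log colour scale) of the 10 neuropeptide precursors (vertical axis) in 17 cell types (horizontal axis). Sst stands out in Inh-MGE and Vip in Inh-CGE, whereas Cck is spread over interneurons and excitatory neurons.

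The strains were compared within each cell type on counts summed per library (edgeR's quasi-likelihood test, Benjamini-Hochberg adjustment over all transcripts tested in that type), and a transcript is called where the adjusted p is under 0.05. Differences are log2, D2 minus B6. The nuclei of each type are known, but within a type fewer nuclei that make a peptide and less of its RNA in each cannot be told apart in such sums. Each library, a pool of about 2 animals, is taken as 1 biological replicate. A permutation of 2 against 2 libraries could not give an exact p under 0.33. Of 170 combinations of member and type, 75 had enough counts for a test and 15 were called, 10 higher and 5 lower in D2. Cck accounted for 6 of them.

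Large parts of the transcriptome differed between the strains, and the members' counts have to be read against those shares. Among interneurons, 0 of 9 members tested were called in Inh-MGE, where 21% of all transcripts were, 2 of 7 in Inh-CGE (15.1%) and 2 of 4 in Inh-Lamp5 (12.1%). Among excitatory types, 1 of 8 members was called in Exc-DG (36%), 1 of 4 in Exc-CA3 (32.1%), 3 of 4 in Exc-CA1-Camk2d (19.4%), 0 of 4 in Exc-CA1-Fras1 (28.5%) and 0 of 6 in Exc-CA1-Galntl6 (35%). Further counts were 1 of 3 in Exc-Gpc6 (19.7%), 1 of 4 in Exc-ENT (28%), 0 of 2 in Exc-Cdh12 (8.44%) and 0 of 2 in CR-CR (4.26%). Among non-neuronal types, 3 of 6 were called in NN-Astro (26.2%), 1 of 4 in NN-OPC (16.2%), 0 of 4 in NN-ODC (19%), 0 of 2 in NN-MGC (10.4%) and 0 of 2 in NN-VLMC (7.87%). In the 8 types with no call, 6 of the 31 member tests had an unadjusted p under 0.05, and DESeq2 called 0. With so few members tested per type, these counts are a description of the members and not evidence that they differ more or less often than other genes.

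Sst, at chr16:23889573-23890958 on the minus strand (gene coordinates here are GENCODE vM21, mm10), encodes somatostatin, the inhibitory peptide of dendrite-targeting interneurons. In Inh-MGE it had 1523 and 637 CPM in B6 libraries 2 and 3 and 1168 and 2071 CPM in D2 libraries 2 and 3. B6 library 3 was the lowest and D2 library 3 the highest, and the strains overlapped. The difference was 0.58 ± 0.29 (SE, n = 2 per strain) with an adjusted p of 0.18. Leaving out B6 library 2 made it 1.34 (adjusted p = 4.26e-23) and leaving out D2 library 2 made it 0.94 (1.84e-09), whereas without D2 library 3 it was 0.12 (0.85). The result therefore depended on which libraries were kept. The MGE marker list summed to 6187 and 6807 CPM in B6 and 5628 and 5256 CPM in D2, and the part of this in the Sst value was not tested.

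Outside Inh-MGE, Sst was close to background in every type. It averaged 1185 counts per 100 nuclei in Inh-MGE and 13.5 to 19.4 in the other 16 types, which included 17.6 in Inh-CGE and 19.4 in Inh-Lamp5. Strain calls fell in 2 of these types, at such low levels. In astrocytes Sst was at 61.3 and 55.5 CPM in B6 and 44.8 and 33.7 CPM in D2, a difference of -0.58 ± 0.15 (adjusted p = 0.0025), and in Exc-CA1-Camk2d at 22.4 and 17.2 against 12.3 and 8.78 CPM, a difference of -0.88 ± 0.25 (0.028). Both differences have the direction of the non-neuronal Sst level given above, of which the astrocytes are a part. Exc-CA1-Camk2d averaged 0.957 times that level in the same library. The ratio was 1.20 and 1.09 in B6 and 0.874 and 0.668 in D2, so Sst there was lower in D2 relative to that level too. The direction is also opposite to that of the fitted value in Inh-MGE. In astrocytes the marker sums of other cells moved in both directions. Lower in D2 were those of oligodendrocytes (362 and 332 against 166 and 144 CPM), GABAergic neurons (671 and 614 against 500 and 541), microglia (249 and 232 against 154 and 147) and excitatory neurons (195 and 186 against 155 and 112). Higher in D2 were those of MGE interneurons (1032 and 1005 against 1108 and 1214), oligodendrocyte precursors (58.5 and 57.6 against 73.7 and 75.8) and CA1 neurons (86.9 and 93.8 against 114 and 96.8). In Exc-CA1-Camk2d the oligodendrocyte and microglia sums were likewise lower, at 137 and 158 against 90.6 and 92.5 CPM and at 256 and 249 against 176 and 188 CPM. The Lamp5 (69.6 and 128 against 156 and 154 CPM) and vascular (231 and 197 against 261 and 299 CPM) sums were higher there. The vascular list shares the gene Dcn with the CA1 list, so in this CA1 type it is not a list of other cells alone. The CA1 list was higher as well, at 670 and 690 against 784 and 766 CPM. Their part in these calls was not tested. DESeq2 did not call either (0.14 and 0.25), nor was either called without D2 library 3 (0.17 and 0.32). The Exc-CA1-Camk2d call was lost as well without B6 library 2 (0.061) or D2 library 2 (0.074).

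**Figure D2:**
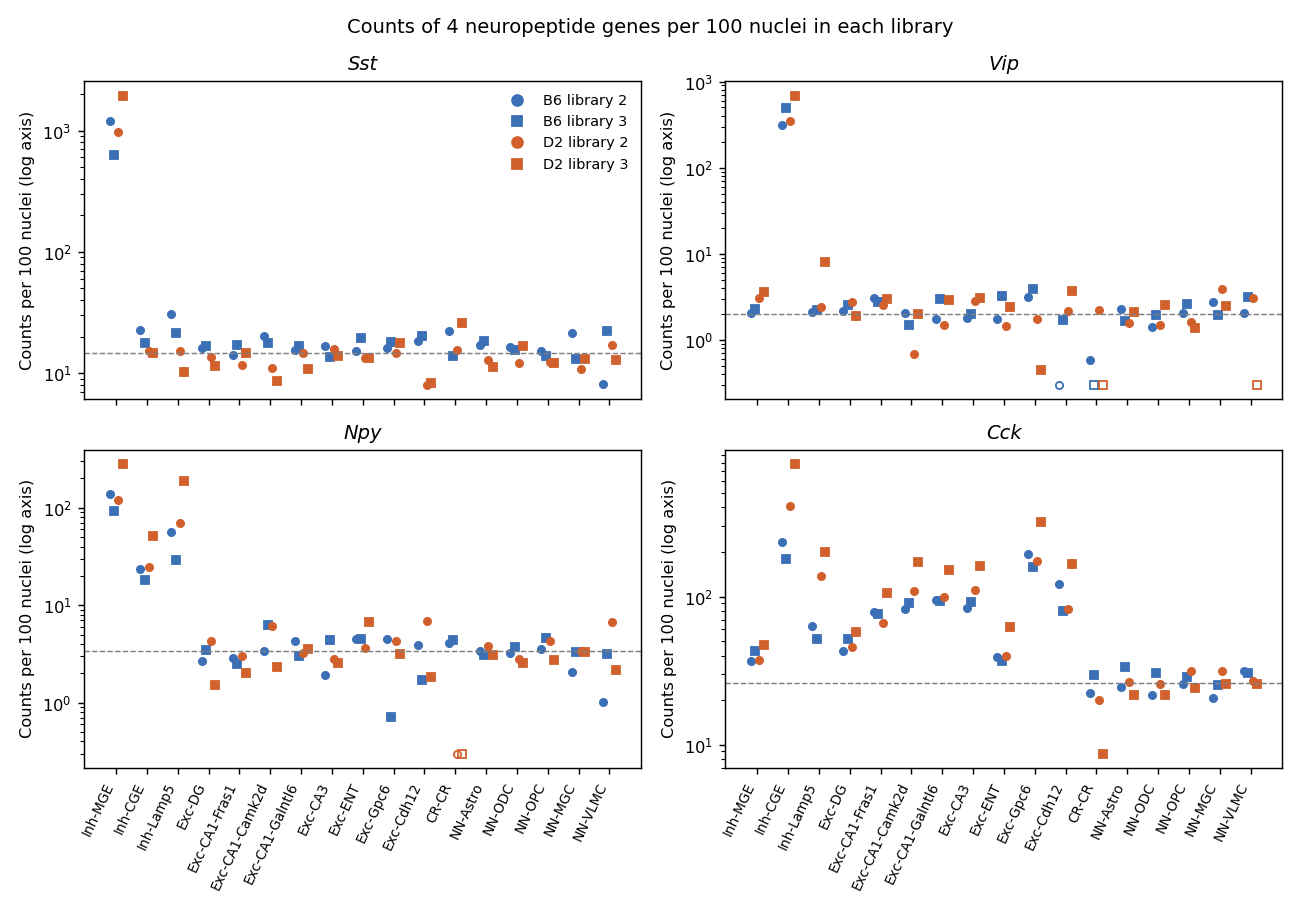
Counts per 100 nuclei (log axis) of Sst, Vip, Npy and Cck in each cell type, with 1 point per library coloured by strain and a dashed line at the mean of the 5 non-neuronal types (hollow points are counts of 0). Sst, Vip and Npy lie on the line in nearly all types but rise far above it in 1 to 3 interneuron classes, and Cck lies above it in every excitatory type.

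Cort, at chr4:149125034-149126763, encodes cortistatin, a peptide close in sequence to somatostatin. It followed Sst across types, with Inh-MGE highest. There it had 78.1 and 39.9 CPM in B6 and 23.5 and 46.9 CPM in D2, again with overlapping strains, and the fitted difference was -0.78 ± 0.28 (adjusted p = 0.065). Without B6 library 3 it was -1.20 (7.14e-11) and without D2 library 3 -1.32 (0.00040), while without B6 library 2 it was -0.24 (0.41). The fitted direction was the reverse of that of Sst in the same nuclei. In astrocytes, Cort had 12 and 13 counts in B6 and 7 and 3 in D2, a difference of -1.43 ± 0.49 (0.026) at these few counts. The marker sums given for Sst in astrocytes apply here too, and their part was not tested. The astrocyte call was lost under 7 of 10 other settings (DESeq2, other scaling and filters, a replicate block, and leaving out each library).

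Npy, at chr6:49822710-49829507 on the plus strand, encodes neuropeptide Y, a brake on glutamate release found in Sst interneurons and in neurogliaform cells. It was above background in all 3 interneuron classes and at 2.11 to 4.81 counts per 100 nuclei in the other 14 types. In Inh-MGE it had 177 and 94.1 CPM in B6 and 147 and 298 CPM in D2, a difference of 0.70 ± 0.27 (adjusted p = 0.080). As for Sst, B6 library 3 was lowest and D2 library 3 highest, and the difference was 1.22 (5.37e-16) without B6 library 2, 1.14 (2.66e-12) without D2 library 2 and 0.12 (0.81) without D2 library 3.

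In Inh-Lamp5, Npy had 80 and 40 counts in B6 and 87 and 164 in D2, or 84.0 and 36.6 against 107 and 220 CPM. Both D2 libraries were above both B6 libraries, and the difference was 1.45 ± 0.27 (adjusted p = 0.00019). DESeq2 did not call it (0.54), while the edgeR call held on leaving out any library (0.85 to 2.13). Without D2 library 3 the difference was 0.85. The marker genes of this class moved too. Their summed level was 1710 and 1733 CPM in B6 and 2120 and 2652 CPM in D2, and Reln and Ndnf, which mark neurogliaform cells, were higher in D2 by 0.47 (0.0049) and 0.50 (0.046). The other genes of the Lamp5 list are not given singly here. The list of Cajal-Retzius cells, which holds Reln and Ndnf too, was higher at 1123 and 1210 against 1434 and 1817 CPM. Those of GABAergic neurons (14493 and 14436 against 13753 and 13144 CPM) and of oligodendrocyte precursors (227 and 224 against 169 and 166) were lower. The part that the makeup of the class plays in the Npy value was not tested. In Inh-CGE, Npy had 34.0, 22.5, 30.3 and 60.2 CPM in the same library order, and was not called (0.65, adjusted p = 0.14).

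Tac1, at chr6:7554879-7565834, encodes substance P and neurokinin A, and in the hippocampus marks a share of MGE interneurons. In Inh-MGE it had 80.4 and 60.6 CPM in B6 and 62.5 and 74.8 CPM in D2, with the D2 libraries between the B6 libraries, and a difference of -0.04 ± 0.15 (adjusted p = 0.88). By mean CPM its next types were the oligodendrocyte precursors (15.1 CPM) and Inh-Lamp5 (13.2 CPM), which did not differ beyond the spread between libraries. Per 100 nuclei these held 5.50 and 9.42 counts, against 0.955 in oligodendrocytes. In the precursors Tac1 had 15 and 12 counts in B6 and 21 and 34 in D2, without overlap, and was called at 1.20 ± 0.36 (0.0085). That call was not made by DESeq2 (0.43), nor without B6 library 3 (0.14) or D2 library 3 (0.27). The precursors' GABAergic list was lower in D2 (3237 and 2865 against 2295 and 2384 CPM). Their own list (2754 and 2604 against 2796 and 3004 CPM) and the oligodendrocyte list (361 and 318 against 555 and 379 CPM) were higher. The part of these lists was not tested for Tac1. In astrocytes it had 12 and 19 against 10 and 5 counts (-1.16, 0.0497), a call that 9 of 10 other settings did not make. It stands beside the marker sums of other cells in astrocytes given for Sst, some lower and some higher in D2, whose part was not tested.

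**Figure D3:**
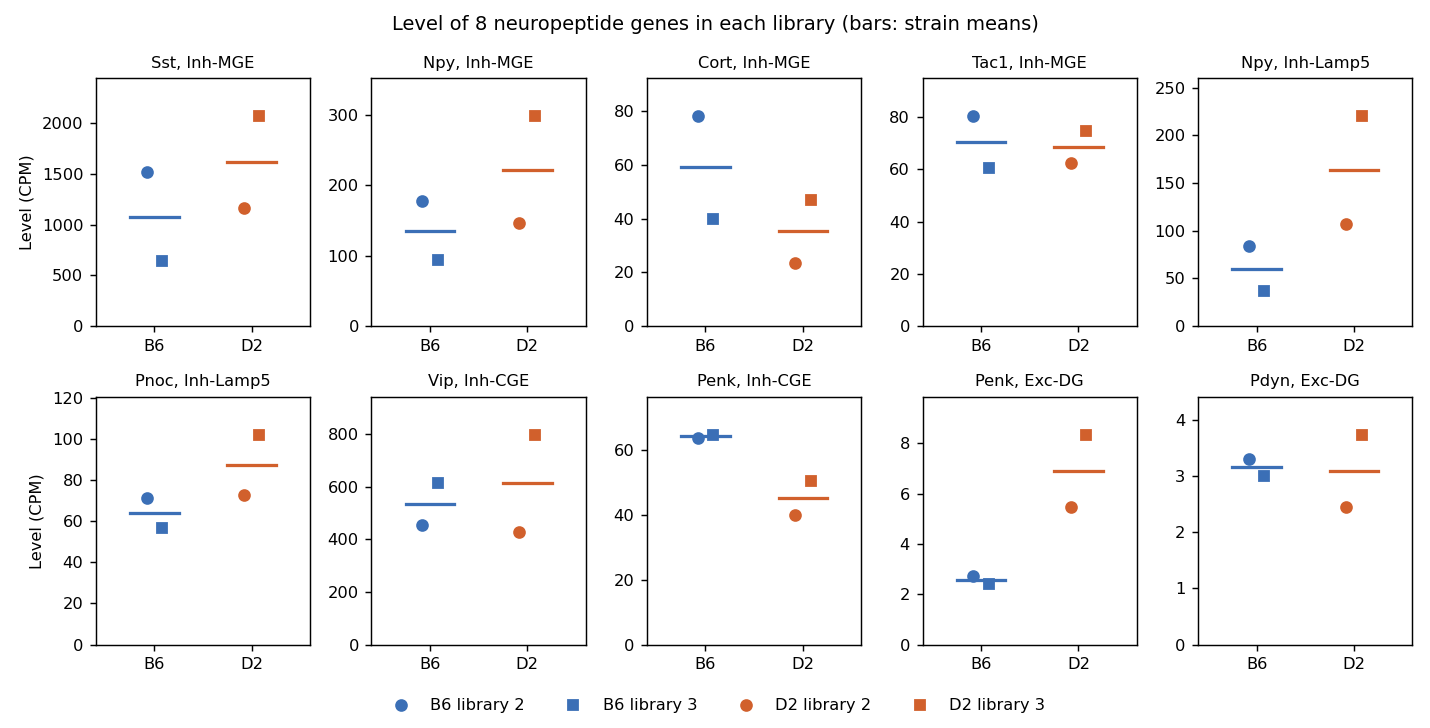
Level (CPM, linear axes from 0) of 8 members in the cell types named above each panel, with 1 point per library and a bar at the mean of each strain (B6, D2). In Inh-MGE the strains overlap for Sst, Npy, Cort and Tac1, while Penk lies apart in opposite directions in Inh-CGE and Exc-DG.

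Vip, at chr10:5639218-5647617, encodes vasoactive intestinal peptide, which marks interneurons that inhibit other interneurons. It was nearly confined to Inh-CGE, at 461 counts per 100 nuclei against 0.702 to 3.67 in the other 16 types. Levels in Inh-CGE were 456 and 615 CPM in B6 and 428 and 799 CPM in D2. The lowest and the highest value were both D2, and the difference of 0.19 ± 0.20 (adjusted p = 0.61) was within the spread between libraries.

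Cck, at chr9:121489824-121495694 on the minus strand, encodes cholecystokinin, a peptide of basket cells that also carry the cannabinoid receptor Cnr1 and of many pyramidal neurons. It was the member with the widest expression and the one most often called. Inh-CGE held 401 counts per 100 nuclei, Exc-Gpc6 211, Exc-DG 49.6, Exc-ENT 44.7 and Inh-MGE 41.1, whereas the non-neuronal types lay between 24.8 and 28.7. Of all Cck counts, the inhibitory classes took 16.7% and 13.8% for B6 and 24.6% and 29.6% for D2.

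Among interneurons, Cck was higher in D2 in Inh-CGE and Inh-Lamp5. In Inh-CGE it had 624 and 405 counts in B6 and 1109 and 1644 in D2, or 342 and 222 against 502 and 909 CPM, a difference of 1.32 ± 0.21 (adjusted p = 0.00010). Both D2 libraries exceeded both B6 libraries, but the D2 libraries lay far apart. The call was lost with DESeq2 (1.31, 0.12). Without D2 library 2 or 3 the difference was 1.68 or 0.84, and since no transcript of this type passed edgeR's test in those fits, they say nothing on whether the Cck call holds. The CGE marker list overlapped between the strains, at 12795 and 13744 CPM in B6 and 13555 and 13022 in D2. Cnr1, 1 of the 6 genes of that list, had 851 and 669 CPM in B6 and 873 and 1153 in D2, a difference of 0.41 (0.058) that did not pass the test. Most of the sum is Adarb2, whose levels overlapped between the strains and are given at the end. What Adarb2 and Cnr1 leave of the sum was lower in D2, and those genes are not given singly here. The part of the list in the Cck value was not tested. The list of GABAergic neurons, at 7824 and 8398 CPM in B6 and 6681 and 6422 CPM in D2, was lower in D2, and its part in the Cck value was not tested.

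In Inh-Lamp5, Cck had 90 and 70 counts in B6 and 173 and 176 in D2, or 94.5 and 64.0 against 213 and 236 CPM. The D2 libraries were close together and well above the B6 libraries, with a difference of 1.51 ± 0.17 (adjusted p = 1.19e-07). This call held under all 10 other settings, with adjusted p from 3.21e-15 to 2.49e-05. The marker sums of the class that were higher or lower with it are those given for Npy, and their part here was likewise not tested. In Inh-MGE, Cck had 46.5 and 43.6 CPM in B6 and 45.5 and 50.3 in D2, and the difference was smaller than its error (0.09 ± 0.14, 0.72).

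Cck was called in 4 of 8 excitatory types, each time higher in D2. In Exc-CA3, Cck had 86.9 and 79.8 CPM in B6 and 114 and 145 CPM in D2 (0.63 ± 0.11, adjusted p = 0.00024), and this was called under all 10 other settings (4.24e-09 to 0.0029). In Exc-CA1-Camk2d the values were 92.4 and 86.1 against 120 and 174 CPM (0.72 ± 0.16, 0.0064), lost without D2 library 3 (0.44, 0.23). Both types thus had every D2 library above every B6 library. The Lamp5 list was higher in D2 in both, at 18.8 and 18.0 against 66.5 and 68.8 CPM in Exc-CA3 and 69.6 and 128 against 156 and 154 CPM in Exc-CA1-Camk2d. It was also higher in types without a Cck call, such as Exc-CA1-Galntl6 (36.9 and 34.1 against 80.8 and 71.4) and NN-ODC (41.9 and 53.0 against 96.8 and 95.0). In Exc-CA3 the CGE list was higher as well (166 and 170 against 185 and 212), and the MGE list was lower (562 and 465 against 394 and 282). The part of these lists was not tested.

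The remaining Cck calls were less steady. Exc-Gpc6 had 300 and 193 CPM in B6 and 282 and 483 in D2, so that the strains overlapped although the test passed (0.62 ± 0.16, adjusted p = 0.0031), and Exc-ENT had 50.5 and 39.5 against 52.6 and 72.0 CPM (0.46 ± 0.14, 0.011). Both were lost with DESeq2 (0.75 and 0.23), without B6 library 3 (0.055 and 0.21) and without D2 library 3 (0.41 and 0.39). In Exc-DG, with the deepest counts, Cck had 62.3 and 60.9 CPM in B6 and 63.2 and 75.3 CPM in D2, and was not called (0.17, 0.20), nor was it in Exc-CA1-Galntl6 (0.29, 0.083). In Exc-CA1-Fras1 the values were 80.2 and 64.5 CPM in B6 and 70.1 and 96.7 in D2 (0.19, 0.35), and in Exc-Cdh12 181 and 91.4 against 120 and 236 CPM (0.43, 0.54), with overlapping strains in both and no call.

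**Figure D4:**
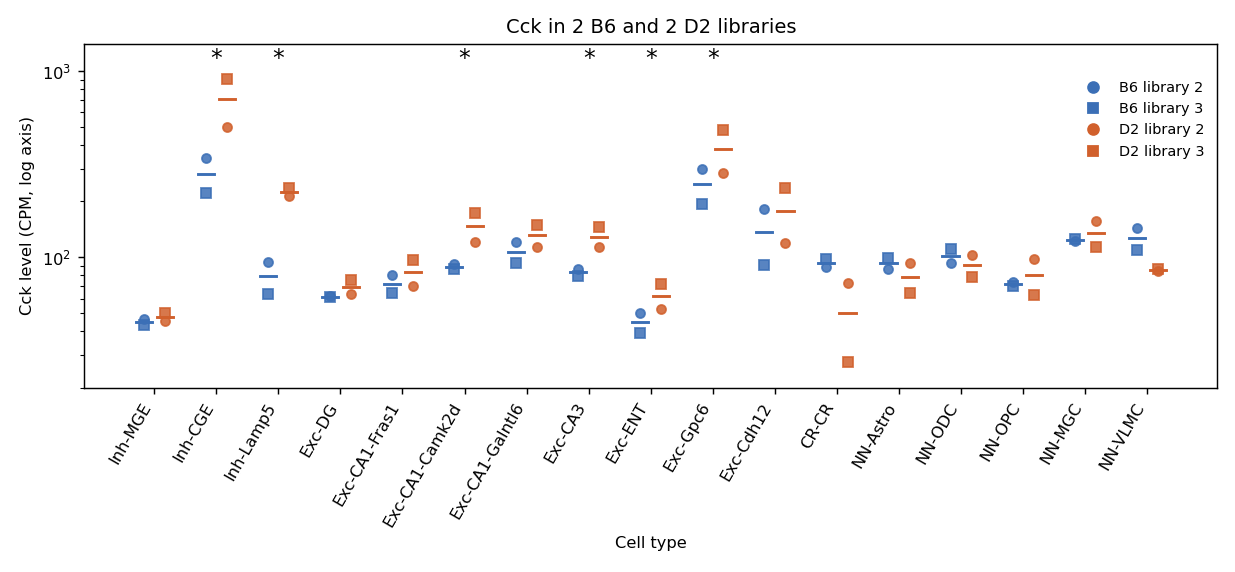
Cck level (CPM, log axis) in each cell type, with points for libraries, bars for strain means and an asterisk where edgeR's adjusted p was under 0.05. The asterisks fall on 2 interneuron classes and 4 excitatory types, all with the D2 mean above the B6 mean.

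Penk, at chr4:4133531-4138819, encodes the enkephalins, and its position overlaps A830012C17Rik on the other strand. In Inh-CGE, its highest type, it had 63.5 and 64.6 CPM in B6 and 39.9 and 50.3 in D2 (-0.52 ± 0.17, adjusted p = 0.0495), a call lost under 7 of 10 other settings. The adjusted p was 0.098 and 0.14 without B6 library 2 or 3, while the fits without D2 library 2 or 3, in which no transcript passed, say nothing on whether it holds. In dentate granule neurons Penk went the other way. It had 28 and 27 counts in B6 and 49 and 67 in D2, or 2.73 and 2.39 against 5.47 and 8.35 CPM, a difference of 1.42 ± 0.27 (0.00070). This call held in all 10 other settings (1.06e-07 to 0.011). The dentate granule list was lower in D2, at 1556 and 1565 against 1426 and 1373 CPM, as was the oligodendrocyte list (204 and 204 against 143 and 132 CPM), and their part in the Penk value was not tested. In Exc-CA1-Camk2d the counts were 3 and 11 in B6 and 24 and 48 in D2 (2.10 ± 0.53, 0.012), and without D2 library 3 the call was lost (1.41, 0.34). In Exc-CA1-Galntl6 Penk had 43 counts in B6 library 2 and 16, 19 and 17 in the others, and was not called (-0.45, 0.40).

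Pdyn, at chr2:129686565-129699844, encodes the dynorphins, which granule cells store in their mossy fibres. Of its counts, 73.0% (SD 7.51) lay in Exc-DG, with 34 and 34 counts in B6 and 22 and 30 in D2. In CPM these were 3.31 and 3.01 against 2.46 and 3.74, and the difference was -0.04 ± 0.29 (adjusted p = 0.94). Penk and Pdyn thus gave different results in the same granule neurons, but the difference between the genes was not tested.

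Pnoc, at chr14:65400673-65425472, encodes nociceptin, the ligand of the fourth opioid-family receptor. It was graded over the interneuron classes, with means of 75.7 CPM in Inh-Lamp5, 34.7 in Inh-CGE and 24.6 in Inh-MGE. In Inh-Lamp5 the libraries had 71.4 and 56.7 CPM in B6 and 72.6 and 102 CPM in D2, a difference of 0.45 ± 0.21 (adjusted p = 0.20). Crh, at chr3:19693401-19695396, encodes corticotropin-releasing hormone, the stress peptide that some hippocampal interneurons make, and was the rarest of the interneuron peptides. It had 15 and 20 counts in B6 and 13 and 14 in D2 in Inh-CGE, and 15 and 26 against 19 and 31 in Inh-MGE. Its summed interneuron counts of 30 and 48 in B6 and 32 and 46 in D2 did not separate the strains (0.08, 0.89).

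Over the 3 interneuron classes summed, 2 of 9 members tested were called, against 27.2% of all transcripts (17.3% higher and 9.94% lower in D2). Cck rose, from 138 and 94.3 CPM in B6 to 205 and 357 CPM in D2 (1.27 ± 0.21, adjusted p = 0.00039), a call kept under all 10 other settings (1.09e-35 to 0.048). Cort fell, from 284 and 169 counts to 98 and 142 (-0.84, 0.039), and this was lost under 4 of the 10, among them the omission of B6 library 2 and of D2 library 2. Over all nuclei summed, 2 of 10 members were called, against 46.7% of all transcripts, namely Cck (0.54 ± 0.11, 0.0011, kept under all 10) and Npy (0.63, 0.011). DESeq2 (0.28) did not call Npy, nor did the fit without D2 library 3. This sum also moves with the numbers of nuclei per type, such as 309 in B6 and 91 in D2 for CR-CR and 1816 and 1045 for NN-ODC. Their part was not tested.

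Whether the strain effect itself differed between types was tested for 6 pairs of types in 1 model each, with 52 tests of members. Of these, 15 had an unadjusted p under 0.05 and 6 were called. Between Inh-MGE and Inh-CGE, Cck and Sst were called, against 0.367% of all transcripts. The Cck effect was lower in Inh-MGE by 1.16 ± 0.18 (adjusted p = 0.00037), and the Sst effect was higher there by 1.17 ± 0.26 (0.032). The same genes were called between Inh-MGE and Inh-Lamp5 (0.635% of transcripts), with -1.40 ± 0.20 (1.44e-06) for Cck and 1.62 ± 0.33 (0.0016) for Sst. Sst in Inh-CGE and Inh-Lamp5 was 1.19 and 1.28 times the non-neuronal level, so for Sst the comparison set a class that makes the peptide against counts near background. No member was called between Inh-CGE and Inh-Lamp5 (0.373% of transcripts), although Npy and Tac1 had unadjusted p-values of 0.0047 and 0.011. Between Inh-MGE and Exc-DG (2.04%) none was called, with unadjusted p-values of 0.0020 for Sst, 0.0034 for Cort and 0.017 for Penk.

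Among excitatory types, the Cck effect was higher in Exc-CA3 than in Exc-DG by 0.48 ± 0.10 (adjusted p = 0.0012, against 3.44% of all transcripts). The Penk effect was lower in Exc-CA1-Galntl6 than in Exc-DG by 1.85 ± 0.41 (0.0019, against 4.13%). Under DESeq2, 7 of 60 such tests had an unadjusted p under 0.05 and 0 passed the adjustment. The Cck differences between Inh-MGE and the other interneuron classes were the ones kept on leaving out any library, an alternative chosen after seeing the data. Those of Sst were lost without D2 library 3 (0.67, adjusted p = 0.50, against Inh-CGE and 0.78, 0.73, against Inh-Lamp5), and the former also without B6 library 3 (0.91, 0.25). For Cck in Exc-CA3 the call was lost without B6 library 3 (0.39, 0.12) or D2 library 3 (0.38, 0.0997), and for Penk without B6 library 2 (-1.18, 0.38) or D2 library 3 (-1.57, 0.071).

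The rest of the peptide pathway was read from 3 lists in the summed interneurons: other precursors, receptors with the binding protein Crhbp, and genes for processing, release and breakdown. Their counts stand against the 17.3% of all transcripts called higher and the 9.94% called lower in D2 there. Of 27 other precursors, 24 were in the table and 11 were tested, with 1 higher and 2 lower in D2 (Cartpt and Npff, both under 6 CPM and named after their values were seen) and a median of -0.09 against 0.06 for all transcripts. Tac2, the precursor of neurokinin B, was higher, from 15.9 and 16.5 CPM in B6 to 36.4 and 49.1 in D2 (1.38, adjusted p = 1.54e-05). It was also called within Inh-CGE, from 52.6 and 60.8 to 117 and 148 CPM (1.21, 9.04e-06). In Inh-MGE Cartpt, the CART precursor, went from 9.98 and 7.47 CPM down to 2.22 and 0.690 (-2.44, 0.00054). Vgf was called higher in D2 in Inh-MGE, from 85.2 and 58.5 to 86.5 and 123 CPM (0.53, 0.040). It was also called in Inh-Lamp5, from 24.2 and 20.1 to 35.7 and 52.3 CPM (0.99, 0.031), and not in Inh-CGE (-0.10, 0.84).

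Of 23 receptors and the binding protein, 17 were tested in the summed interneurons, and 0 were higher and 1 was lower in D2 (median -0.12). That one was Oprm1, the mu opioid receptor, at 131 and 145 CPM in B6 and 96.2 and 95.8 in D2 (-0.52, adjusted p = 0.00072). Within classes it was called in Inh-Lamp5, from 332 and 388 to 237 and 205 CPM (-0.70, 0.00043), and not in Inh-MGE (-0.29, 0.085).

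Of the 22 processing, release and breakdown genes, 21 were tested, with 4 higher and 6 lower in D2 (median -0.03), beside the same background shares of 17.3% and 9.94%. Ece2, an endothelin-converting enzyme family member able to cut neuropeptides, was lower throughout. It had 76.9 and 75.3 CPM in B6 and 27.5 and 26.0 in D2 (-1.5, adjusted p = 1.75e-07), and was called in each of Inh-MGE (-1.57), Inh-CGE (-1.51) and Inh-Lamp5 (-1.19). Cpe, the carboxypeptidase that trims peptide precursors, was lower by a small and even amount, from 238 and 243 to 182 and 177 CPM (-0.42, 0.0022). Pam, which amidates peptide ends, and Ptprn, a vesicle membrane protein gene, were also lower (-0.35, 0.0096, and -0.33, 0.043), and are named after their values were seen. The convertase genes Pcsk1 (-0.53, 0.012) and Pcsk5 (-0.52, 0.033) were lower as well. The convertase inhibitor Pcsk1n (0.49, 0.022), the convertase chaperone Scg5 (0.38, 0.030), the vesicle-priming gene Cadps2 (0.43, 0.0019) and the peptidase gene Mme (0.56, 0.021) were higher. Cadps2 went the other way within Inh-MGE, from 39.6 and 25.0 to 13.6 and 12.4 CPM (-1.29, 0.00051). Mme was called within Inh-Lamp5, from 14.7 and 13.7 to 43.1 and 47.0 CPM (1.66, 0.00036), and not in Inh-MGE (0.37, 0.19).

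The transcripts whose mean levels over the 17 types were most like each member's were ranked by Pearson's r among 12655 transcripts. The points are cell types that share libraries and a few of them carry most of the spread, so r is a description. Sst was closest to Crhbp (0.977), Cort (0.912) and Pvalb (0.893), and Vip to Tac2 (0.891). Npy was closest to Slc32a1 (0.950) and Gad2 (0.922), genes of GABA release and synthesis, and Pnoc to Gad2 (0.964). Crh was nearest to Npffr1 (0.957), Penk to the serotonin receptor gene Htr3a (0.877) and Pdyn to Glis3 (0.822). Cck had the lowest best match, Npy1r at 0.661. Among members, Tac1 and Cort were at 0.831.

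Open chromatin was measured in 27206 ATAC nuclei as counts per peak. There were 25 peaks in or within 1 kb of the members, of which 8 lay over a start, those of Sst, Vip, Npy, Cck, Tac1, Penk, Pdyn and Cort. The ATAC types had been named by linking them to the RNA data, so levels across types are not independent of the expression above. The Sst start peak, chr16:23890268-23891073, averaged 15.1 CPM in Inh-MGE and at most 3.23 in any other type. The Vip start peak was highest in Inh-CGE (3.90 CPM), and the Penk start peak reached 12.7 CPM there. The Cort start peak was open in Inh-Lamp5 (16.3 CPM) as well as Inh-MGE (23.4), whereas Cort RNA averaged 6.87 and 47.1 CPM in these types. The Cck start peak was highest in Exc-Gpc6 (24.9 CPM) and lower in Inh-MGE (4.94). Pnoc had 8 peaks and none over its start, the most open lying 1796 bases inside the gene, at 56.9 CPM in Inh-Lamp5, 35.5 in Inh-CGE and 19.4 in Inh-MGE, the order of its RNA.

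**Figure D5:**
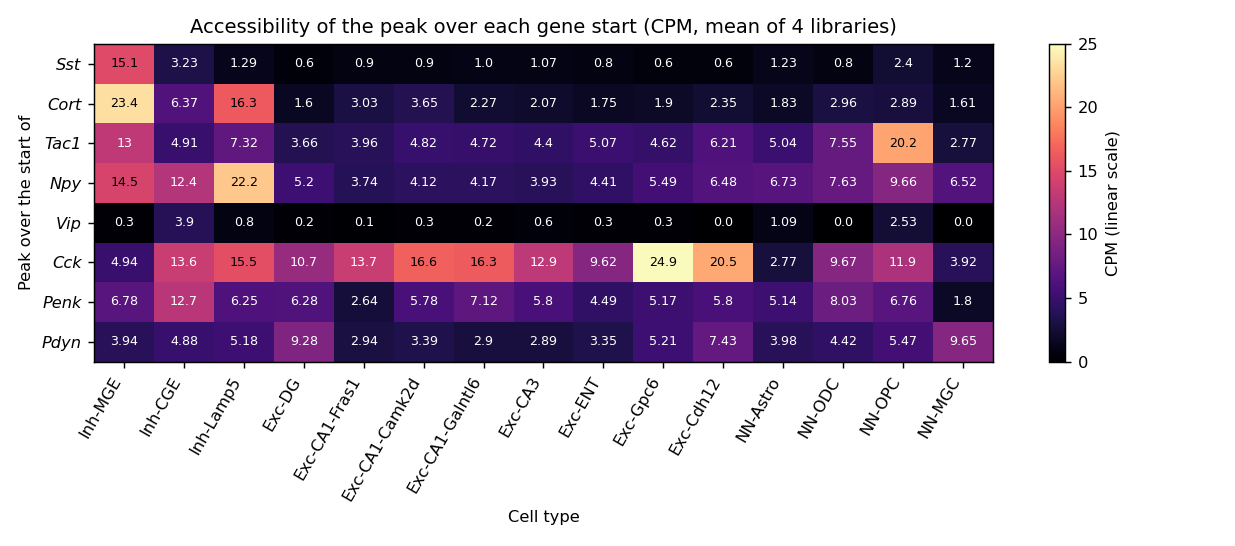
Mean ATAC level (CPM, over 4 libraries, colour scale) of the 8 peaks over the starts of members (vertical axis) in 15 cell types (horizontal axis). The Sst peak stands out in Inh-MGE, while the Cck and Npy peaks are open in many types.

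Between strains, the member peaks were tested in Exc-DG, Inh-MGE and Inh-CGE by edgeR, and 0 of 72 tests were called, although 11 had an unadjusted p under 0.05. DESeq2 also called 0. Of all peaks, 5.97% were called in Exc-DG, 0.87% in Inh-MGE and 0.273% in Inh-CGE. The Cck start peak in Inh-CGE had 31 and 25 counts in B6 and 47 and 63 in D2, which after scaling to depth was a difference of 0.06 ± 0.25 (adjusted p = 0.97), beside the RNA difference of 1.32. In Exc-DG the Penk start peak differed by 0.34 ± 0.14 (0.16). The Cort start peak in Inh-MGE had 111 and 170 counts in B6 and 140 and 132 in D2, a difference of -0.45 ± 0.14 (0.082) in the same direction as its RNA. Without B6 library 2 it was called (-0.60, 0.032), as it was with scaling to library totals (-0.49, 0.027). The lowest adjusted p was 0.062, for a peak inside Pnoc in Exc-DG.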

How the data were processed

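Ventral hippocampal nuclei of B6 and D2 mice were profiled by snRNA-seq and snATAC-seq, with 2 libraries per strain and assay. The authors aligned reads with Cell Ranger 6.0.2 and Cell Ranger ATAC 2.0.0 to mm10 for B6 and to mm10 carrying D2 single-base variants for D2, kept intronic RNA reads, removed doublets and the extremes of UMI and gene number, clustered nuclei with Seurat 4.0.5 and deposited counts summed per cell type and library, as raw whole numbers. RNA counts are UMIs per gene, and ATAC counts are per peak, called per sample and merged. Insertions and deletions between the strains are not in the altered genome, which may move D2 counts. Whether free RNA was removed is not given in the sources used here.

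Counts were tested as deposited, per cell type, with edgeR 4.0.16 (TMM, filterByExpr, quasi-likelihood) in R 4.3.3 and Benjamini-Hochberg adjustment. DESeq2, which the authors used in another version, was an alternative, run here in version 1.42.0. The others were RLE and library-total scaling, no low-count filter, symbols counted in both strains, a replicate block and leaving out each library. On leaving out a library, the lone library of a strain is assumed to vary like those of the other strain. CPM are counts per 1000000 counts of the scaled library size. Differences of strain effects were tested as interactions in a model of 2 types. ATAC peaks needed 10 or more counts. Depth per cell type (139713 to 11352265 RNA counts) sets the precision. The tests were checked on simulated counts with known changes, drawn with the same spread between libraries for every gene of an assay. Members such as Sst in Inh-MGE varied more than that between libraries of a strain, and the check does not cover them.

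The rule for the members used no measured value, but the members, marker lists and pathway lists were chosen with earlier results of these data known. The list genes named in the text were those called with at least 5 CPM and strains apart, up to 5 per direction, and the 3 transcripts most like a member came from those with 20 CPM or more in a type. Other pathway genes named are said to be so. Libraries are numbered 1 and 2 in the labels but 2 and 3 in the columns, so columns were placed by strain.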

Additional observations from a re-analysis of the deposited data

Results flagged for a closer look

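Of 52 tests of whether a member's strain effect (log2, D2 minus B6) differed between a pair of cell types, 6 passed edgeR's adjusted threshold. The Sst effect in Inh-MGE exceeded that in Inh-CGE by 1.17 and that in Inh-Lamp5 by 1.62. The Cck effect in Inh-MGE was below that in Inh-CGE, with a difference of -1.16, and below that in Inh-Lamp5, with a difference of -1.40. The Cck effect in Exc-CA3 exceeded that in Exc-DG by 0.48, and the Penk effect in Exc-CA1-Galntl6 less that in Exc-DG was -1.85. DESeq2 passed 0 of 60 such tests, with 7 at an unadjusted p under 0.05. No group had 4 or more libraries, so no single library could be tested as an outlier.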

How the results depend on the processing

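Of 19 called member results, 5 stayed called under all 10 other settings: Cck in Inh-Lamp5, Exc-CA3, the summed interneurons and all nuclei, and Penk in Exc-DG. The 15 calls in single cell types became 5 with DESeq2 and ranged from 6 (without D2 library 3) to 19 on leaving out a library, where no transcript of Inh-CGE passed without either D2 library. The 2 calls in the summed interneurons became 1 with DESeq2 or with symbols counted in both strains, 5 without a low-count filter, and 2 to 5 on leaving out a library. The 2 calls over all nuclei became 1 with DESeq2, 4 with RLE scaling, 6 without the filter, and 2 to 6 on leaving out a library. The 6 differences of strain effect became 0 with DESeq2 and 3 to 8 on leaving out a library. For ATAC peaks, 0 calls became 1 with library totals or a minimum of 50 counts, and 0 to 1 on leaving out a library. With a replicate block, 21 calls were made in single types, 5 in the summed interneurons and 4 over all nuclei, among them Sst (0.65, adjusted p = 0.0017), Npy (0.68) and Cort (-0.76) in Inh-MGE. Same-numbered libraries did not deviate together (r from -0.18 to 0.060 over cell types). This does not show whether they shared a preparation, and the labels do not say. A crossed replicate block, chosen after seeing the data, gave 20, 6 and 4 calls. Directions reversed for uncalled values only, when a library was left out. These were Cck in astrocytes (-0.53 to 0.0060), Exc-CA1-Fras1 (-0.050 to 0.41) and Exc-Cdh12 (-0.13 to 0.89), Vip (-0.15 to 0.83) and Pnoc (-0.045 to 0.69) in the summed interneurons, Npy in Exc-Gpc6 (-0.20 to 2.73) and Penk in Exc-CA1-Galntl6 (-0.93 to 0.35). The cause was not tested. The highest levels by type were unchanged under 7 settings, except that Crh was highest in Inh-MGE in the D2 libraries. Few counts limit Crh, Pdyn, Cort outside Inh-MGE and Tac1 in glia.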

Other observations

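The ratio of Sst to Cort counts in Inh-MGE, chosen after the values were seen, was 19.5 and 15.9 for B6, against 49.7 and 44.2 for D2. The level of Sst relative to Npy and Pnoc varied less. The ratio of Sst to Npy was 8.59 and 6.77 in B6 and 7.97 and 6.94 in D2, and that of Sst to Pnoc 55.7 and 44.9 against 55.6 and 57.8. The ratio of Sst to Tac1 was 19.0 and 10.5 in B6 and 18.7 and 27.7 in D2. The ratios are within a library and so do not depend on its scaling, and no test was run on them.

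The MGE marker Grin3a had 340 and 374 CPM in B6 and 317 and 357 in D2 in Inh-MGE, and Pvalb, which marks basket cells of the same class, had 21.4 and 23.5 against 27.4 and 19.3 CPM. These overlapped between the strains, but others of the MGE list were lower in D2. Satb1 had 271 and 246 against 201 and 189 CPM (-0.40, adjusted p = 0.011) and Kcnc2 2835 and 3150 against 2301 and 1970 CPM (-0.49, 0.0063). Adarb2, a CGE marker, was at 23.9 and 39.4 CPM in B6 and 9.89 and 13.1 in D2 in Inh-MGE (-1.5, adjusted p = 0.00028), and at 11685 and 12796 against 12461 and 11642 CPM in Inh-CGE.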
